A study of Mus musculus with 34 samples.

Results

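The transcript levels of 31 genes of cholesterol and fatty acid synthesis, taken from a list of genes of the sterol regulatory element-binding protein (SREBP) pathway, were followed across 34 RNA sequencing libraries. All 31 symbols were found among the 55341 gene names counted, and all 31 passed the low-count filter in both library sets. The cells derive from the mouse mammary adenocarcinoma line 3617. Their own glucocorticoid receptor (GR, gene Nr3c1) was knocked out, and each line stably expresses GFP-tagged mouse GR as wild type (WT) or as the form labelled Y551A, Y551A-Dim, D647V or D647V-Tetra, names used here as the labels give them. All cells were kept in 10% charcoal/dextran-treated serum with 5 µg/ml tetracycline, and Drosophila S2 cells were added at 5% as a spike-in, per the labels. The treatment lasted 2 h and was either the synthetic glucocorticoid dexamethasone (Dex) at 100 nM or ethanol (EtOH) as vehicle. The libraries form a first set (set 1) of 18, from WT, Y551A and Y551A-Dim, and a second (set 2) of 16, from WT again, D647V and D647V-Tetra. Each combination of line and treatment has 3 libraries, except WT in set 2, which has 2. A single line stands for each receptor form, so a substitution and other differences between lines cannot be told apart. The labels do not say that replicates came from separate cultures, and the p-values may then measure technical spread only.

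Cholesterol is built from acetyl-CoA through mevalonate, isoprenoid diphosphates, squalene and lanosterol, and fatty acids from the same acetyl-CoA through malonyl-CoA. Genes of both branches are activated by the SREBP transcription factors (Srebf1 and Srebf2), which bind sterol regulatory elements, usually together with the CCAAT-binding factor NF-Y. When sterols are plentiful, INSIG proteins (Insig1 and Insig2) hold the SREBPs and their escort SCAP in the endoplasmic reticulum, and Insig1 is itself an SREBP target. In the mammary gland the fatty acid branch is known for making milk fat, and proliferating cells use both branches to make membrane. GR is a ligand-activated transcription factor that binds its own response elements.

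The sequence before the start site is shown for a member of each kind whose values are described below, the sensor Insig1, the mevalonate pathway enzymes Hmgcs1 and Mvd, and fatty acid synthase Fasn. They were taken from RefSeq on GRCm38.p6 and read 5′ to 3′ on the gene's strand. They cover chr5:28071162-28071362 (Insig1, plus strand), chr13:119690101-119690350 (Hmgcs1, plus strand), chr8:122443423-122443672 (Mvd, minus strand) and chr11:120824548-120824797 (Fasn, minus strand). The last 49 bases before the RefSeq start of Insig1 are left out because GENCODE places them in an exon. Capitals mark the CCAAT box and the sterol element TCACNCCAC on either strand.
Insig1: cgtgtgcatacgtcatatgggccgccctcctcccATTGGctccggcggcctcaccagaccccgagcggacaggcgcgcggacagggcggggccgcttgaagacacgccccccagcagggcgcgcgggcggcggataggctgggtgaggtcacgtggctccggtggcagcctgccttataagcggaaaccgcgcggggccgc
Hmgcs1: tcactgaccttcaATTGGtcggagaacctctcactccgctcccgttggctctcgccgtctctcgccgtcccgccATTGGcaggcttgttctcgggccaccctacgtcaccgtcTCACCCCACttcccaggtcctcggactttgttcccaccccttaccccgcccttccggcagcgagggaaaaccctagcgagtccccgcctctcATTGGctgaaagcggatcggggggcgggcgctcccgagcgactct
Mvd: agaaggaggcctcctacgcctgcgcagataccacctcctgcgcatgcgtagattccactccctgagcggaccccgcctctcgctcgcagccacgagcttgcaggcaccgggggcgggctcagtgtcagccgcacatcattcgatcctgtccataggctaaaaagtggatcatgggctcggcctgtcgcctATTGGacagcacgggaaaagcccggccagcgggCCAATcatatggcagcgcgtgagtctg
Fasn: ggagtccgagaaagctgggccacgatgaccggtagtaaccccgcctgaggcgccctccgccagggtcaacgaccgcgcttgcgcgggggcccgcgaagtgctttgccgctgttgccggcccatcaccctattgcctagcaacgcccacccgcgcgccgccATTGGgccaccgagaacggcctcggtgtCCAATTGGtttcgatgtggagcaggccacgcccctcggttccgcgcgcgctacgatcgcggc
The Insig1 window holds 1 CCAAT box, 216 bases before the RefSeq start, and an E-box (CACGTG) 101 bases before it. The Hmgcs1 window holds CCAAT boxes 237, 176 and 45 bases before the start and the sterol element 137 bases before it. Both strands were searched in the 250 bases before each start, and 24 of the 31 members matched a RefSeq entry by symbol. Fdps, Fdft1, Sqle, Stard4, Scd1, Scd2 and Fads1 did not. A CCAAT box was present for 20 of these 24 genes (83.3%), against 37.5% of all 27025 genes in the table. Counted by window, since some genes have several starts, it was in 21 of 31 member windows (67.7%) and in 33.8% of all windows. TCACNCCAC was present for 1 of the 24 members, Hmgcs1 (1.22% of all genes). CACGTG was present for 4, Insig1, Dhcr7, Hsd17b7 and Sc5d (6.86% of all genes). These are matches of letters in a short window and say nothing of which factor binds there.

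Depth was 44998213 to 70124595 counted reads per library in set 1 and 60277930 to 79776573 in set 2. The biological coefficient of variation was 5.13% and 8.62%, so set 2 was noisier. Replicates of a group differed by 2.77 to 65.6 times the counting noise (chi-square per degree of freedom), and no pair looked like a library deposited more than once. D647V-Tetra EtOH replicate 1 stood apart, at 60.2 and 65.6 against the other replicates of its group, which differed by 14.7 from each other. Y551A-Dim Dex replicate 1 held the lowest value of its group for 27 of the 31 members and replicate 3 the highest for 26. Many of the results that use either library are given with and without it, but not all. The receptor transcript Nr3c1 was present in every group, with means of 240.0 to 377.2 CPM (counts scaled by the normalised library size). The known Dex-induced gene Tsc22d3 rose in all 6 responses, by 0.72 (Y551A-Dim) to 2.55 (WT, set 2) on the log2 scale, as did Per1, by 1.22 (Y551A-Dim) to 3.09. Fkbp5, another, rose by 0.52 to 1.21 in 5 responses and was at -0.03 in Y551A-Dim (adjusted p = 0.902). The 9 mammary epithelial markers summed to 3.67 to 20.9 CPM, with 1 or 2 above a mean of 1 CPM and Epcam at 0 in every group. The 7 fibroblast markers summed to 1666 to 2787 CPM, with 4 above a mean of 1 CPM in every group. Lum, Thy1 or both were at 0 in every group. The 6 adipocyte markers summed to at most 0.551 CPM. The 7 immune markers summed to 6.20 to 16.3 CPM, with 2 of them above a mean of 1 CPM in every group. Adgre1 and Cd3e among them were at or near 0 throughout.

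Set against gene length, the members spanned a wide range of levels without Dex. The scale is CPM per kilobase of exon, over the WT EtOH libraries of set 1. The stearoyl-CoA desaturase Scd2 was highest, at 741 ± 15.6 (SD, n = 3), followed by HMG-CoA synthase Hmgcs1 at 318 ± 4.86, the second desaturase Scd1 at 269 ± 4.59 and Insig1 at 185 ± 7.23. These 4 genes did not overlap one another. In the middle lay Fasn at 94.7 ± 4.37 and Acat2 at 99.5 ± 2.23, which overlapped, and the transcription factor genes Srebf1 at 46.6 ± 0.307 and Srebf2 at 28.7 ± 0.50. Insig2, the second sensor, was at 29.2 ± 0.473. The sterol reductase Tm7sf2 was lowest, at 1.34 ± 0.0270, below the isoprenoid enzyme Ggps1 at 8.87 ± 0.0788. In WT of set 2 Scd2 (764) and Tm7sf2 (1.20) were again the extremes and Scd1 (331) lay above Hmgcs1 (245). The sets were fitted separately here and were not tested against each other. Some reads cannot be placed with certainty, since 28.9% of the 100-base words of Acat2 transcripts also occur in Acat3, 23.6% of those of Acaca in Gm5182, 20.5% of those of Fdps in Gm43738 and 15.8% of those of Idi1 in Gm13502. For Tm7sf2 the share was 7.92% (Vps51), and for the other members it was at most 2.37%.

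**Figure D1:**
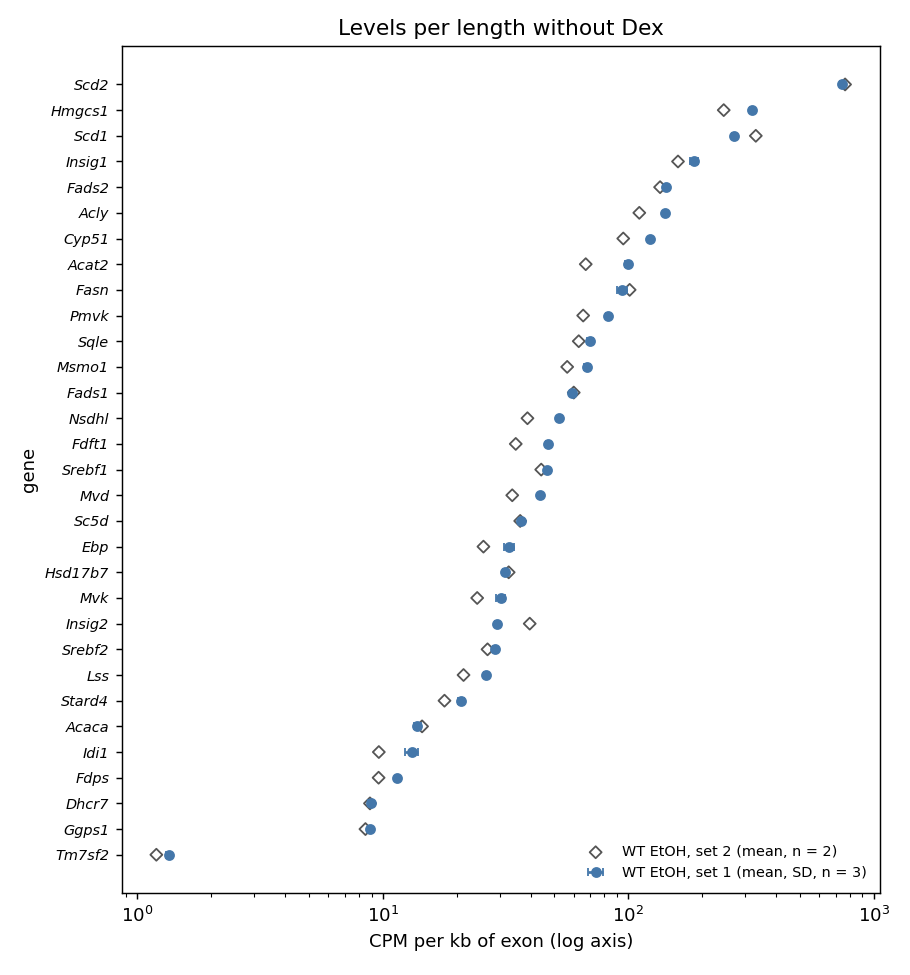
Mean level per kilobase of exon (CPM per kb, log axis) of the 31 members in WT cells without Dex, filled circles for set 1 (n = 3, bars are SD) and open diamonds for set 2 (n = 2). Scd2 lies highest at 741 and Tm7sf2 lowest at 1.34 CPM per kb in set 1.

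After 2 h of Dex the members changed by -0.51 to 0.28 on the log2 scale, and the member called in nearly every line was Insig1, which fell. Calls rest on edgeR's quasi-likelihood test at an adjusted p below 0.05, with p-values adjusted over every gene tested. In WT of set 1, 1 of 31 members was called lower and 0 higher, where 3.4% of the 16140 genes tested were called in either direction and 1.4% lower. In Y551A 0 were called, with 3 of 31 at an unadjusted p under 0.05, and the background was 1.84% in either direction and 0.415% lower. DESeq2 also called 0 there. In Y551A-Dim 3 were called lower and 0 higher, against 1.09% of all genes in either direction and 0.192% lower. In set 2, 1 of 31 was called lower in WT (background 1.72% of 17535 genes, 0.376% lower) and 1 in D647V (0.941%, 0.137% lower). In D647V-Tetra 9 were called lower and 2 higher, where 19.2% of all genes were called, 7.89% lower and 11.3% higher. The median change of the members was -0.06, -0.01 and -0.15 in WT, Y551A and Y551A-Dim of set 1, and -0.01, -0.07 and -0.11 in WT, D647V and D647V-Tetra of set 2. The median of all genes lay between -0.01 and 0.00. In the same order, negative changes numbered 30, 19 and 28 of 31 in set 1 and 16, 25 and 24 in set 2. An unadjusted p under 0.05 was reached by 4, 3 and 24 members in set 1 and by 1, 4 and 19 in set 2. The share of all genes at that unadjusted threshold was not counted.

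**Figure D2:**
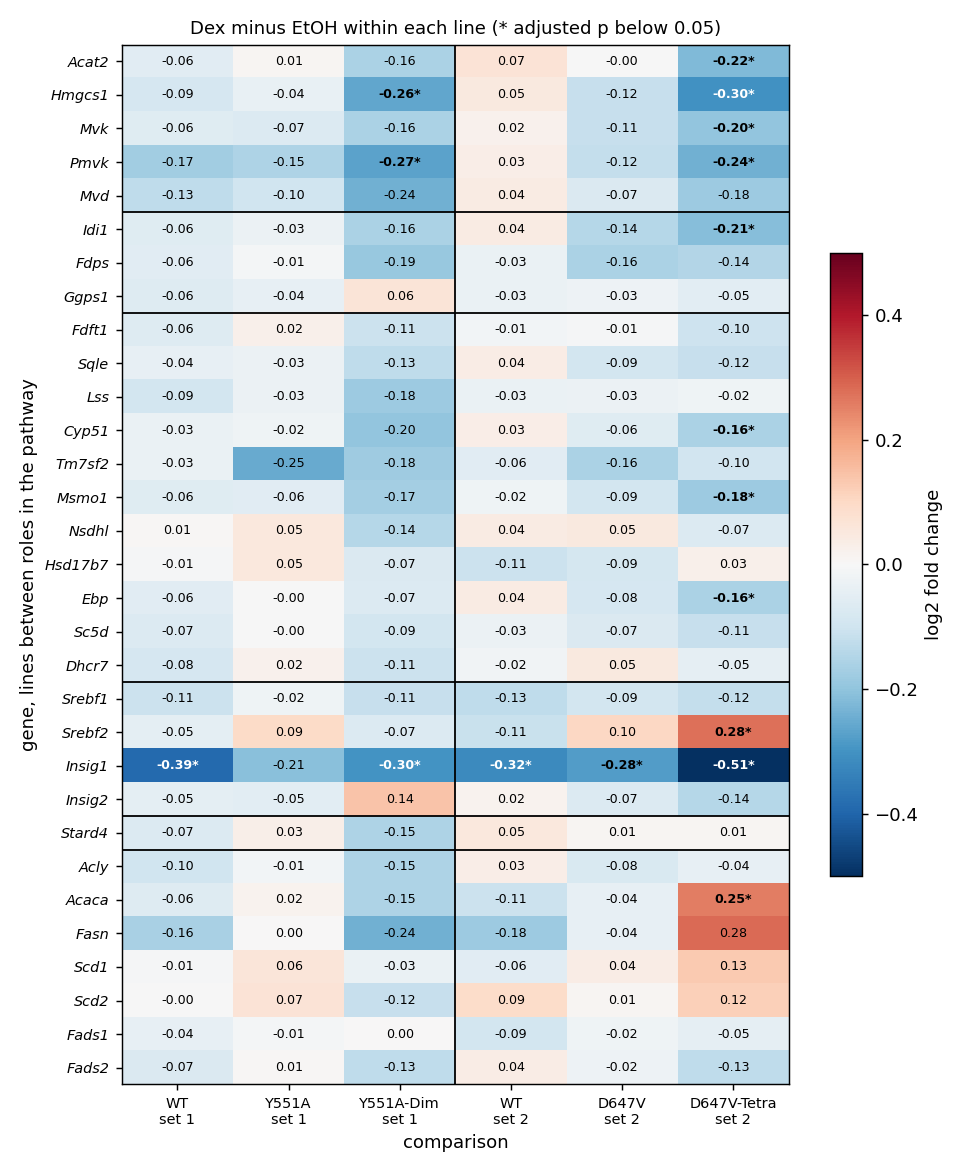
Log2 fold change of each member, Dex minus EtOH, in the 6 line and set combinations (columns), with rows grouped by role in the pathway and blue for lower with Dex. Stars mark an adjusted p below 0.05, and the Insig1 row is blue throughout, from -0.21 in Y551A to -0.51 in D647V-Tetra.

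Insig1 (chr5:28071363-28078662, plus strand, mm10) was at 567, 596 and 552 CPM in the EtOH replicates of WT in set 1 and at 430, 440 and 441 CPM with Dex. All 3 Dex libraries lay below all 3 EtOH libraries, a change of -0.39 ± 0.061 on the log2 scale (SE, 23.6% lower, adjusted p = 8.31e-05). In Y551A it was at 344, 371 and 348 CPM without Dex and 280, 324 and 315 CPM with it. The groups did not overlap here either, but the change of -0.21 ± 0.061 did not pass (adjusted p = 0.0904, range over the alternatives 2.84e-05 to 0.414, with an adjusted p below 0.05 in 4 of 11). In Y551A-Dim the values were 418, 463 and 438 CPM without Dex and 309, 376 and 387 CPM with it. This fall of -0.30 ± 0.061 passed (adjusted p = 0.00865), yet without Y551A-Dim Dex replicate 1 it was -0.21 with an adjusted p of 0.0717, and without EtOH replicate 2 it was -0.27 with 0.0679.

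In WT of set 2 Insig1 was at 497 and 489 CPM without Dex and at 367 and 424 CPM with it, a fall of -0.32 ± 0.073 (adjusted p = 0.0276). In D647V it was at 484, 534 and 521 CPM without Dex and at 431, 438 and 402 CPM with it, a fall of -0.28 ± 0.059 (adjusted p = 0.0281). Leaving out 1 library ended the call for WT with EtOH replicate 1 (adjusted p = 0.165), EtOH replicate 2 (0.153) or Dex replicate 1 (-0.22, 0.356), and for D647V with EtOH replicates 2 (0.286) or 3 (0.146) or Dex replicates 1 (0.0601), 2 (0.0550) or 3 (0.221). In D647V-Tetra Insig1 was at 581, 548 and 547 CPM without Dex and 380, 419 and 380 CPM with it. This was the largest fall of the 6, -0.51 ± 0.059 (29.6% lower, adjusted p = 2.03e-05), and it was -0.48 without D647V-Tetra EtOH replicate 1. In WT of set 1 and in D647V-Tetra the call held under all 11 alternatives tried.

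**Figure D3:**
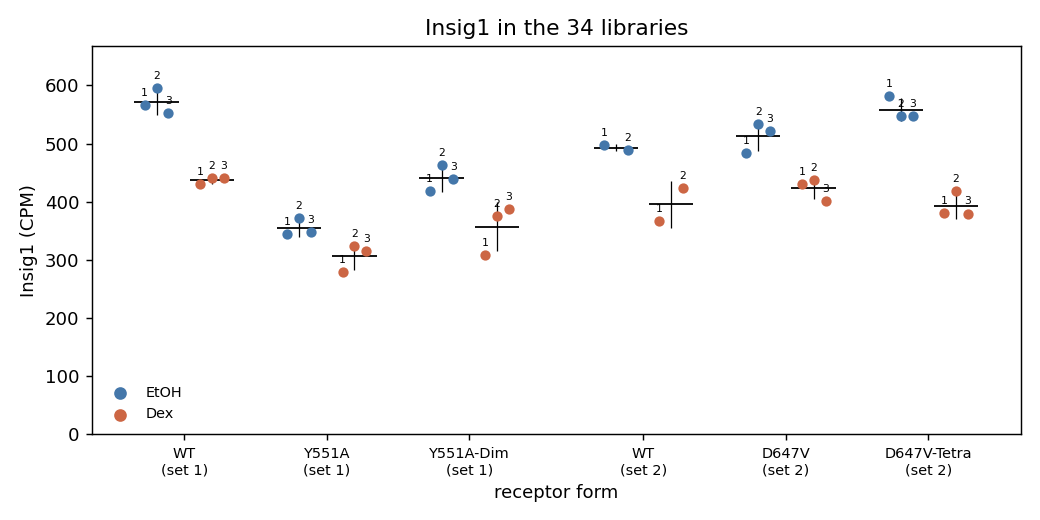
Insig1 in CPM (normalised read counts) in each of the 34 libraries, blue for EtOH and orange for Dex, with replicate numbers above the points, bars at the group means and vertical lines for 1 SD. In all 6 line and set combinations every Dex point lies below every EtOH point.

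Insig1 was the only member whose Dex libraries lay below all EtOH libraries in all 6 combinations, and the only one called lower in 5 of them. Of the 16056 genes tested in both sets, 24 (0.149%) lay below in all 6 and 19 (0.118%) were called lower in 5 or more. The next member by this count was Pmvk, which lay below without overlap in 5 combinations and was called in 2. Hmgcs1 and Msmo1 lay below in 4. In single combinations of set 1, 11.3% (WT), 6.53% (Y551A) and 5.3% (Y551A-Dim) of all genes lay below without overlap. For set 2 the shares were 17.6% (WT), 6.88% (D647V) and 17.2% (D647V-Tetra). The share of all genes lying below in 4 or 5 combinations was not counted. No difference in the fall of Insig1 between lines was called when the difference itself was tested. Y551A minus WT was 0.18 (95% interval 0.00 to 0.36, adjusted p = 0.789) and Y551A-Dim minus WT was 0.09 (-0.09 to 0.27, adjusted p = 0.827). D647V minus WT was 0.04 (-0.16 to 0.24, adjusted p = 0.917) and D647V-Tetra minus WT was -0.19 (-0.39 to 0.01, adjusted p = 0.212). Y551A-Dim minus Y551A was -0.09 (-0.27 to 0.09, adjusted p = 0.863), and D647V-Tetra minus D647V was -0.23 (-0.41 to -0.05, adjusted p = 0.240). These intervals are wide beside the fall itself, so like responses are not shown. In such bulk libraries, fewer cells that express a gene and less RNA per cell cannot be told apart.

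The other regulators gave no call outside D647V-Tetra. Insig2 changed by -0.14 to 0.14 over the 6 combinations and Srebf1, which encodes the SREBP-1 factors, by -0.13 to -0.02, with no call. Srebf2, which encodes SREBP-2, was at 142, 181 and 162 CPM in D647V-Tetra without Dex and at 219, 173 and 195 CPM with it. The groups overlapped, and the rise of 0.28 ± 0.083 (adjusted p = 0.0300) rested on the library that stood apart: without D647V-Tetra EtOH replicate 1 it was 0.19 (adjusted p = 0.138). In that setting Srebf1, at 198, 266 and 253 CPM without Dex and 231, 206 and 223 CPM with it, was called lower instead (-0.24, adjusted p = 0.0107), where its change over all libraries was -0.12 (adjusted p = 0.314).

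Among the 5 enzymes from acetyl-CoA to isopentenyl diphosphate, all calls were falls, in Y551A-Dim and D647V-Tetra. Hmgcs1, which makes HMG-CoA, was at 1244, 1322 and 1224 CPM in Y551A-Dim without Dex and at 935, 1073 and 1153 CPM with it. The groups did not overlap (-0.26 ± 0.049, adjusted p = 0.00413), and the fall was still called without Y551A-Dim Dex replicate 1, at -0.18 (adjusted p = 0.0218). Phosphomevalonate kinase Pmvk was at 127, 126 and 119 CPM without Dex and at 90.8, 105 and 114 CPM with it (-0.27 ± 0.054, adjusted p = 0.00865). Without Dex replicate 1 Pmvk was at -0.18 and no longer called (adjusted p = 0.0834). Mvd, the mevalonate diphosphate decarboxylase, missed the threshold at -0.24 (adjusted p = 0.0761).

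The Y551A-Dim count was sensitive to single libraries in both directions. It was 1 without Dex replicate 1 and 20 without Dex replicate 3, where 19 members fell and Insig2 rose (0.20, adjusted p = 0.0053). The count over all genes moved with it, from 176 to 87 and 674. The summed level of the 31 members was 10775 to 12380 CPM in the Dex libraries of Y551A-Dim and 12319 to 13451 CPM in its EtOH libraries, which overlap. The immune marker sum also reached its highest value in Dex replicate 1, at 16.3 CPM. That value came from Cd68, at 9.43 CPM there and 3.43 and 2.75 CPM in the other Dex replicates, while Adgre1 and Cd3e were at 0. Its part in the result was not tested.

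In D647V-Tetra, Hmgcs1 was at 1527, 1474 and 1461 CPM without Dex and at 1157, 1295 and 1167 CPM with it, a fall of -0.30 ± 0.049 (adjusted p = 0.00046). The cytosolic thiolase Acat2, which makes acetoacetyl-CoA, was at 212, 215 and 224 CPM without Dex and 190, 180 and 189 CPM with it (-0.22 ± 0.047, adjusted p = 0.00451). Pmvk was at 129, 132 and 131 CPM without Dex and at 107, 116 and 109 CPM with it (-0.24 ± 0.052, adjusted p = 0.00461). For these 3 enzymes no Dex library reached an EtOH library, and the call held under all 11 alternatives. Mevalonate kinase Mvk, at 71.6, 76.9 and 79.1 CPM without Dex and 68.8, 64.7 and 65.3 CPM with it, was also called (-0.20, adjusted p = 0.0382), but not in 6 of the 11. All 5 enzymes of this stretch lay below without overlap in D647V-Tetra, where 17.2% of all genes did.

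**Figure D4:**
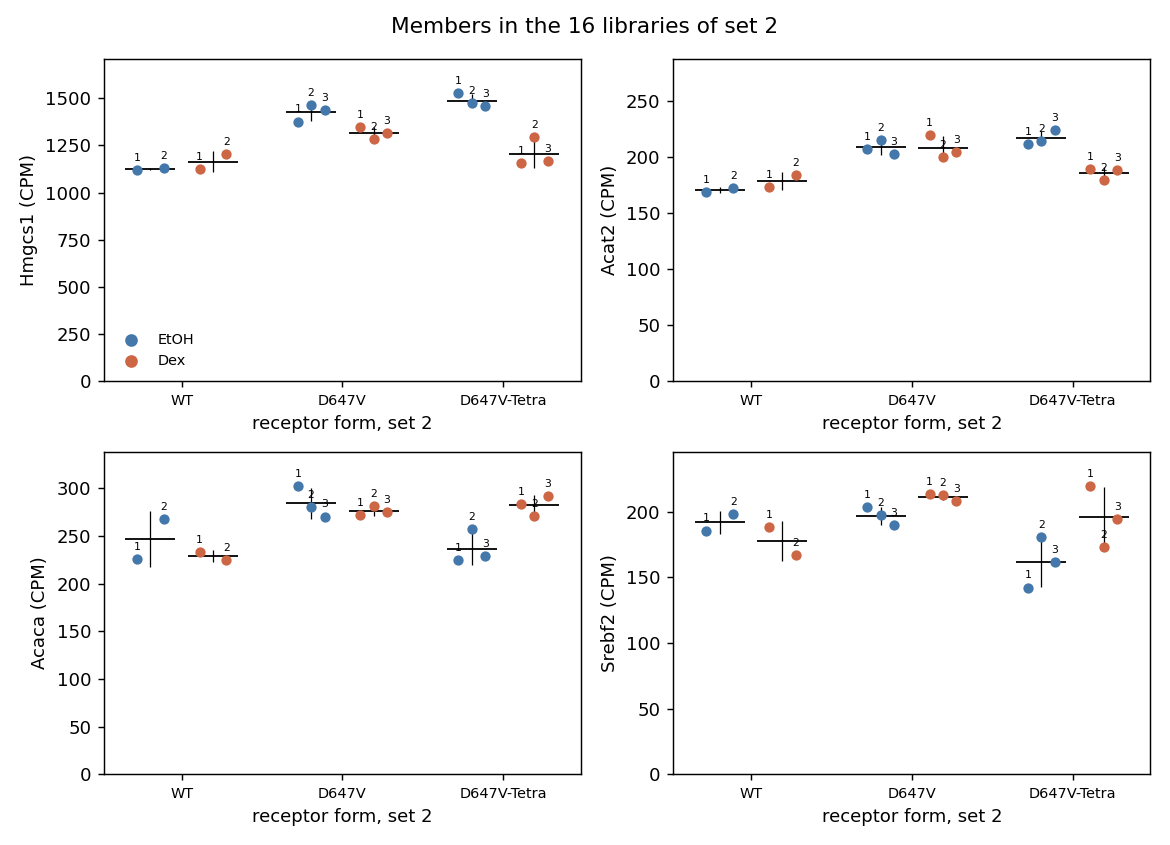
CPM of Hmgcs1, Acat2, Acaca and Srebf2 in the 16 libraries of set 2, blue for EtOH and orange for Dex, with replicate numbers above the points, bars at the group means and vertical lines for 1 SD. In D647V-Tetra every Dex point of Hmgcs1 and Acat2 lies below every EtOH point, every Dex point of Acaca lies above, and those of Srebf2 overlap.

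Further along the sterol branch 1 of 3 isoprenoid enzymes was called in D647V-Tetra. Isopentenyl-diphosphate isomerase Idi1 was at 48.7, 44.0 and 43.6 CPM without Dex and 38.1, 40.9 and 38.5 CPM with it (-0.21, adjusted p = 0.0255), and at -0.17 without EtOH replicate 1 (adjusted p = 0.0992). Of the 11 genes from squalene to cholesterol 3 were called, all lower. Methylsterol monooxygenase Msmo1 was at 433, 400 and 412 CPM without Dex and at 359, 380 and 357 CPM with it (-0.18, adjusted p = 0.0131). Lanosterol demethylase Cyp51 was at 506, 461 and 477 CPM without Dex and at 419, 451 and 423 CPM with it (-0.16, adjusted p = 0.0371), and it was not called without EtOH replicate 1 (-0.13, adjusted p = 0.124). The sterol isomerase Ebp was at 66.8, 66.6 and 71.5 CPM without Dex and at 61.5, 62.7 and 59.7 CPM with it (-0.16, adjusted p = 0.0255). None of these 4 overlapped between groups. The remaining 8 genes of this stretch ran from -0.12 to 0.03, and the sterol transfer protein gene Stard4 was at 0.01.

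Of the 7 fatty acid enzymes 1 was called in D647V-Tetra, higher, while 4 changes were positive and 3 negative. Acetyl-CoA carboxylase Acaca was at 224, 257 and 229 CPM without Dex and at 283, 271 and 292 CPM with it. Its groups did not overlap, where 19.1% of all genes lay above in this way. The rise was 0.25 ± 0.064 (adjusted p = 0.0129). Without D647V-Tetra EtOH replicate 1 it was 0.21 and not called (adjusted p = 0.0590). Fasn was at 804, 1204 and 1081 CPM without Dex and at 1316, 1146 and 1297 CPM with it. Its lowest value came from EtOH replicate 1, its groups overlapped, and its change was 0.28 (adjusted p = 0.0708), or 0.13 without that library (adjusted p = 0.297). The desaturases Scd1 and Scd2 were at 0.13 and 0.12, and Fads1 and the citrate lyase Acly at -0.05 and -0.04, with no call. Fads2, at 478, 474 and 493 CPM without Dex and 424, 467 and 434 CPM with it, lay lower without overlap but was not called (-0.13, adjusted p = 0.0927). In the other 5 combinations no fatty acid enzyme was called, and their changes ran from -0.24 to 0.09.

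Without D647V-Tetra EtOH replicate 1 the count in D647V-Tetra was again 11, but 0 higher and 11 lower. Srebf2, Acaca, Idi1 and Cyp51 were then not called, and Mvd (-0.25), Fdps (-0.25), Fdft1 (-0.14) and Srebf1 (-0.24) were. Leaving out another library gave 4 calls (Dex replicate 3), 5 (Dex replicate 1), 6 (EtOH replicate 3) or 12 (EtOH replicate 2 or Dex replicate 2). The count over all genes also moved, from 3367 to 1917 without EtOH replicate 1, 1344 and 1644 without Dex replicates 3 and 1, 1700 and 4023 without EtOH replicates 3 and 2, and 3714 without Dex replicate 2.

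The difference between the Dex responses of 2 lines was called for 2 members, both in D647V-Tetra minus WT of set 2, where 4.41% of all genes were called, 0.713% with a negative difference. Hmgcs1 was at 1120 and 1130 CPM in WT without Dex and at 1125 and 1203 CPM with it, so that its response in WT was 0.05, against -0.30 in D647V-Tetra. The difference was -0.35 ± 0.077 (adjusted p = 0.0171). Acat2 was at 169 and 172 CPM in WT without Dex and at 173 and 184 CPM with it, a response of 0.07, against -0.22 in D647V-Tetra. The difference was -0.29 ± 0.075 (adjusted p = 0.0394). Both were called without D647V-Tetra EtOH replicate 1, at -0.34 (adjusted p = 0.0327) and -0.31 (0.0412). They rested on the 2-library WT groups: without WT Dex replicate 2 the adjusted p was 0.134 for Hmgcs1 and 0.239 for Acat2, and without WT EtOH replicate 2 it was 0.0917 and 0.136. Leaving out a Dex library of D647V-Tetra also ended both calls, with adjusted p of 0.0520 and 0.0695 for replicate 1 and 0.0525 and 0.0780 for replicate 3. Acat2 alone lost its call without WT EtOH replicate 1 (0.0561) or D647V-Tetra EtOH replicate 3 (0.0893). Acaca (0.36, adjusted p = 0.0525) and Srebf2 (0.39, adjusted p = 0.0896) differed the other way without passing. The means of Hmgcs1 in D647V-Tetra and WT were 1206 and 1164 CPM with Dex, and 1487 and 1125 CPM without it. Those of Acat2 were 186 and 179 CPM with Dex, and 217 and 171 CPM without it. The same EtOH libraries enter the Dex responses, their difference and the baselines given below, so these results are not independent.

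In the other 5 comparisons of responses 0 members were called. The background was 0.18% for Y551A minus WT, 1.47% for Y551A-Dim minus WT, 0.558% for Y551A-Dim minus Y551A, 0.188% for D647V minus WT and 0.873% for D647V-Tetra minus D647V. These shares are at the adjusted threshold. The members with an unadjusted p under 0.05 numbered 1, 5, 12, 1 and 5 in that order. The share of all genes at that unadjusted threshold was not counted. DESeq2 called 1 member in Y551A-Dim minus Y551A, 2 in D647V-Tetra minus D647V and 0 in the rest. Without Y551A-Dim Dex replicate 3 the first 2 comparisons of Y551A-Dim gave 3 and 4 calls.

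Without Dex, more members differed between the lines of set 1 than changed with Dex in any line. In Y551A 27 of the 31 members were lower than in WT and 1, Insig2, was higher, where 42.5% of all genes were called in either direction, 23.5% lower and 18.9% higher. The median of the members was -0.38, against 0.00 for all genes. All 5 early enzymes were lower (-0.61 to -0.48), as were 2 of 3 isoprenoid enzymes, 9 of 11 genes from squalene to cholesterol, Stard4, Srebf1, Srebf2 and all 7 fatty acid enzymes (-0.46 to -0.18). Ggps1 (0.07), Hsd17b7 (-0.00) and Dhcr7 (-0.03) were not called. In Y551A-Dim 20 were lower than in WT and 2 higher, against 23.3% of all genes (13.3% lower), with a median of -0.19. Y551A-Dim against Y551A gave 21 higher and 2 lower, against 29% of all genes (14.8% higher), with a median of 0.18. These comparisons share libraries and are not independent. Groups without overlap were common over all genes. In Y551A 29% of genes lay below WT in this way and 25.1% above, and in Y551A-Dim 22.8% and 17.8%. Y551A-Dim lay above Y551A for 21.1% of genes and below it for 20.2%. The receptor transcript moved too, with Nr3c1 higher than in WT by 0.30 in Y551A and 0.15 in Y551A-Dim, and the mammary epithelial marker sum was 19.6 to 20.9 CPM in Y551A, 5.40 to 6.38 CPM in WT and 8.71 to 9.54 CPM in Y551A-Dim. The sum of 4 endothelial markers was 7.46 to 7.83 CPM in WT, 2.95 to 3.81 CPM in Y551A and 2.53 to 2.86 CPM in Y551A-Dim. Only 1 of the 4 was above a mean of 1 CPM in each of these groups. Their part in the result was not tested.

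**Figure D5:**
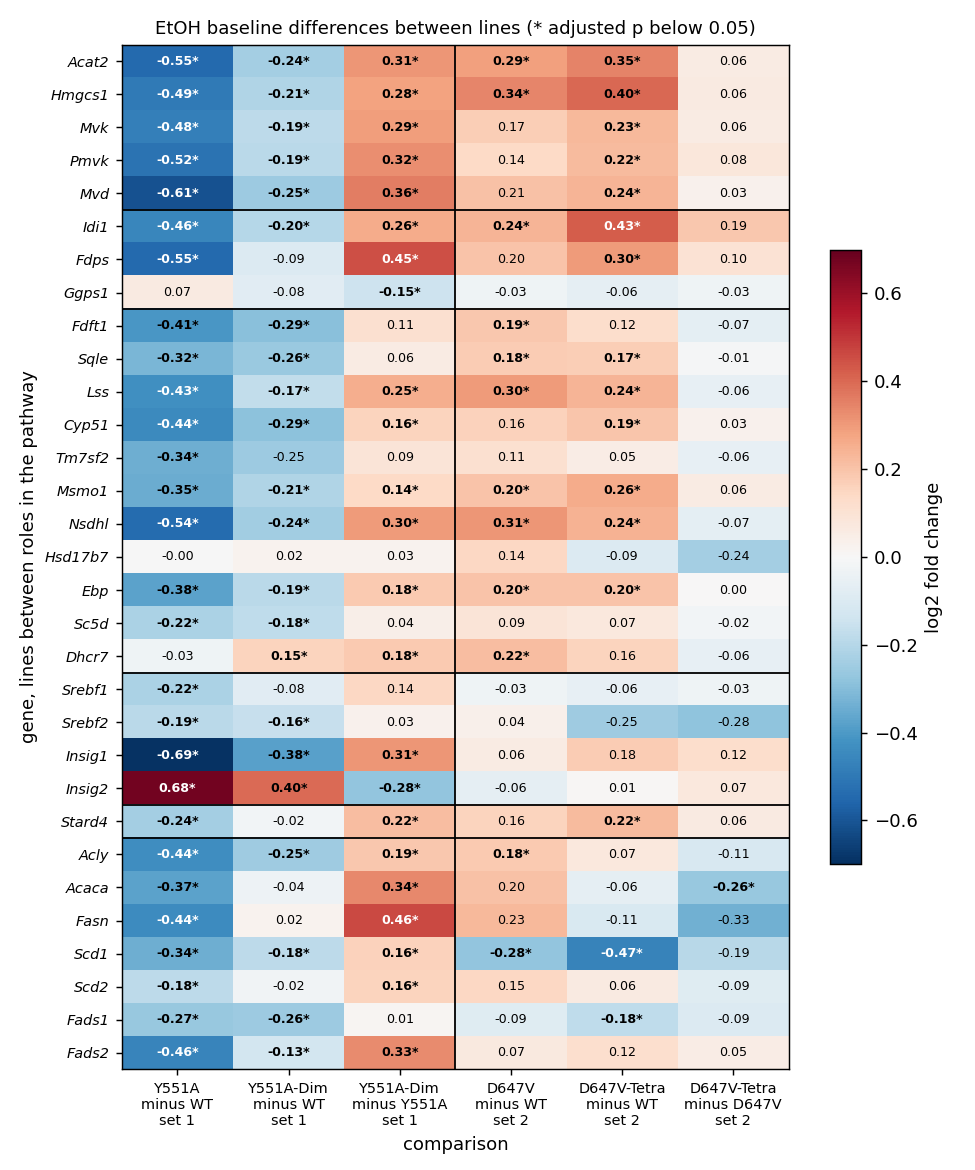
Log2 fold change of each member between lines without Dex, set 1 in the left 3 columns and set 2 in the right 3, rows grouped by role, red for higher in the first-named line. Stars mark an adjusted p below 0.05. The Y551A column is blue in nearly every row, with Insig2 red at 0.68.

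The sensors moved in opposite directions. Insig1 was at 567, 596 and 552 CPM in WT, 344, 371 and 348 CPM in Y551A and 418, 463 and 438 CPM in Y551A-Dim. The 3 lines did not overlap, with Y551A lowest (-0.69 ± 0.061 against WT, adjusted p = 7.02e-10) and Y551A-Dim between (-0.38 ± 0.061, adjusted p = 4.78e-05). Insig2, which is known to depend less on SREBP than Insig1, was at 99.8, 101 and 103 CPM in WT, 165, 162 and 160 CPM in Y551A and 135, 130 and 135 CPM in Y551A-Dim. It gave the reverse order, 0.68 ± 0.044 in Y551A (adjusted p = 2.15e-12) and 0.40 ± 0.044 in Y551A-Dim (adjusted p = 2.35e-07), again with no overlap.

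The 5 early enzymes were lower than in WT in both lines and higher in Y551A-Dim than in Y551A. Mvd was at 81.7, 80.8 and 80.8 CPM in WT, 54.7, 50.1 and 54.7 CPM in Y551A (-0.61, adjusted p = 1.76e-08) and 69.3, 69.8 and 65.2 CPM in Y551A-Dim. Acat2 was at 257, 255 and 247 CPM in WT, 174, 174 and 172 CPM in Y551A (-0.55, adjusted p = 8.74e-10) and 205, 224 and 215 CPM in Y551A-Dim. Pmvk was at 139, 145 and 141 CPM in WT, 102, 93.0 and 103 CPM in Y551A and 127, 126 and 119 CPM in Y551A-Dim, where it was 0.32 above Y551A (adjusted p = 3.8e-05). For all 3 the lines did not overlap, and Y551A was lowest. Farnesyl diphosphate synthase Fdps was at 47.7, 48.1 and 48.5 CPM in WT, 32.2, 34.3 and 32.3 CPM in Y551A (-0.55, adjusted p = 5.33e-08) and 43.4, 45.1 and 46.6 CPM in Y551A-Dim. Y551A-Dim was 0.45 above Y551A (adjusted p = 2.71e-06) and was not called against WT (-0.09). Ggps1, which makes geranylgeranyl diphosphate, gave another order, at 42.1, 41.4 and 42.1 CPM in WT, 44.1, 44.0 and 43.4 CPM in Y551A and 40.1, 39.7 and 39.1 CPM in Y551A-Dim (-0.15 against Y551A, adjusted p = 0.0346).

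From squalene on, 8 of 11 genes were lower in Y551A-Dim than in WT and 1 was higher, Dhcr7 (0.15, adjusted p = 0.0268). The sterol dehydrogenase Nsdhl was at 149, 151 and 147 CPM in WT, 102, 103 and 103 CPM in Y551A (-0.54, adjusted p = 1.61e-09) and 126, 128 and 125 CPM in Y551A-Dim. Squalene synthase Fdft1 was at 196, 203 and 198 CPM in WT, 152, 151 and 148 CPM in Y551A and 162, 165 and 161 CPM in Y551A-Dim (-0.29 against WT, adjusted p = 8.49e-05). Cyp51 was at 542, 548 and 534 CPM in WT, 392, 406 and 395 CPM in Y551A and 434, 456 and 442 CPM in Y551A-Dim (-0.29, adjusted p = 0.000285). Squalene epoxidase Sqle was at 389, 396 and 375 CPM in WT, 304, 315 and 309 CPM in Y551A and 319, 334 and 313 CPM in Y551A-Dim (-0.26, adjusted p = 0.000101). For Fdft1 and Sqle the difference of Y551A-Dim from Y551A was not called (0.11 and 0.06).

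The fatty acid enzymes split in Y551A-Dim. Fasn was at 1016, 1001 and 1091 CPM in WT, 753, 726 and 813 CPM in Y551A and 1055, 1135 and 969 CPM in Y551A-Dim. Y551A-Dim overlapped WT (0.02) and was 0.46 ± 0.067 above Y551A (adjusted p = 5.16e-06). Acaca behaved alike, at 229, 235 and 246 CPM in WT, 178, 183 and 186 CPM in Y551A and 242, 232 and 217 CPM in Y551A-Dim (0.34 above Y551A, adjusted p = 5.32e-06). The desaturase Fads2 was at 477, 467 and 469 CPM in WT, 337, 339 and 350 CPM in Y551A and 430, 451 and 411 CPM in Y551A-Dim (0.33 above Y551A, adjusted p = 8.07e-07, and -0.13 against WT, adjusted p = 0.0269). The desaturase Fads1 stayed near its level in Y551A, at 285, 291 and 279 CPM in WT, 236, 235 and 239 CPM in Y551A and 236, 249 and 231 CPM in Y551A-Dim (-0.26 against WT, adjusted p = 1.01e-05, and 0.01 against Y551A).

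These baselines of set 1 were the firmest results. For Y551A against WT 27 of the 28 calls held under all 11 alternatives, and the count without a library was 27 or 28. Y551A-Dim against WT gave 16 to 22 calls without a library, and against Y551A it gave 19 to 22.

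In set 2 most of the members called against WT were higher, in both D647V lines. In D647V 11 members were higher and 1 lower, against 7.36% of all genes (4.58% higher), with a median of 0.17. In D647V-Tetra 14 were higher and 2 lower, against 18.7% of all genes (9.35% higher), with a median of 0.16. The 11 in D647V were 2 of 5 early, 1 of 3 isoprenoid and 7 of 11 later sterol enzymes and 1 fatty acid enzyme, Acly (0.18). The 14 in D647V-Tetra all belonged to the sterol branch, from 5 of 5 early enzymes to 6 of 11 genes from squalene to cholesterol. The lower ones were Scd1 in both lines and Fads1 in D647V-Tetra. The 4 regulators were not called in either line. Nr3c1 was also lower than in WT, with log2 changes of -0.24 in D647V and -0.37 in D647V-Tetra. The mammary epithelial marker sum without Dex was 8.69 to 8.94 CPM in WT, 3.67 to 4.40 CPM in D647V and 4.31 to 4.89 CPM in D647V-Tetra. The sum of 4 endothelial markers, with 1 of them above a mean of 1 CPM in each group, was 6.07 to 6.58, 2.11 to 2.74 and 2.09 to 2.38 CPM. The fibroblast sum was 1920 to 2050, 2591 to 2694 and 1862 to 2613 CPM. Their part in the result was not tested.

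Hmgcs1 was at 1120 and 1130 CPM in WT of set 2, 1376, 1463 and 1435 CPM in D647V (0.34 ± 0.055, adjusted p = 0.000969) and 1527, 1474 and 1461 CPM in D647V-Tetra (0.40 ± 0.055, adjusted p = 0.000112). Acat2 was at 169 and 172 CPM in WT, 208, 216 and 203 CPM in D647V (0.29, adjusted p = 0.00285) and 212, 215 and 224 CPM in D647V-Tetra (0.35, adjusted p = 0.000286). Idi1 was at 34.5 and 33.1 CPM in WT, 37.4, 41.6 and 40.5 CPM in D647V (0.24, adjusted p = 0.0456) and 48.7, 44.0 and 43.6 CPM in D647V-Tetra (0.43, adjusted p = 0.000464). Both D647V lines lay above WT without overlap for all 3, where WT has 2 libraries. The EtOH libraries are those against which the Dex responses were measured. Of all genes, 19.9% lay above WT without overlap in D647V and 21.2% in D647V-Tetra. Lanosterol synthase Lss was at 221 and 239 CPM in WT, 282, 283 and 284 CPM in D647V (0.30, adjusted p = 0.0044) and 248, 288 and 279 CPM in D647V-Tetra. Nsdhl was at 107 and 114 CPM in WT, 134, 138 and 140 CPM in D647V (0.31, adjusted p = 0.00075) and 130, 131 and 133 CPM in D647V-Tetra. Fdps and Msmo1 were 0.30 (adjusted p = 0.0235) and 0.26 (adjusted p = 0.00227) above WT in D647V-Tetra. Fdps, at 37.9 and 43.0 CPM in WT and 42.4, 53.0 and 53.9 CPM in D647V-Tetra, overlapped through EtOH replicate 1, and Msmo1, at 349 and 344 CPM in WT and 433, 400 and 412 CPM in D647V-Tetra, did not overlap.

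In D647V-Tetra 0 of the 7 fatty acid enzymes were called higher than in WT and 2 lower, Scd1 and Fads1, with a median of -0.06. Scd1 was called lower in both D647V lines. It was at 1582 and 1655 CPM in WT, 1324, 1366 and 1321 CPM in D647V (-0.28 ± 0.064, adjusted p = 0.0133) and 1060, 1229 and 1216 CPM in D647V-Tetra (-0.47 ± 0.063, adjusted p = 0.000106). WT lay above both lines without overlap, and without D647V-Tetra EtOH replicate 1 the change in D647V-Tetra was -0.40 (adjusted p = 0.000274). Of all genes, 16.7% lay below WT without overlap in D647V and 22.1% in D647V-Tetra. D647V-Tetra differed from D647V in 1 member, Acaca, at 302, 280 and 270 CPM in D647V and 224, 257 and 229 CPM in D647V-Tetra (-0.26 ± 0.064, adjusted p = 0.0269), where 4.53% of all genes were called. It was not called without D647V-Tetra EtOH replicate 1 (-0.22, adjusted p = 0.130), D647V-Tetra EtOH replicate 3 or D647V EtOH replicates 1 or 2, each of which left 0 calls, and without D647V-Tetra EtOH replicate 2 there were 4. The 2 WT libraries carried much of these counts: without WT EtOH replicate 1 or 2, D647V against WT gave 2 or 5 calls and D647V-Tetra against WT gave 9 or 8. Over all genes the count went from 1290 to 364 or 881 and from 3277 to 2651 or 1498. Leaving out D647V EtOH replicates 2 or 3 gave 5 or 4 calls for D647V (646 or 721 over all genes). Without D647V-Tetra EtOH replicate 1, D647V-Tetra against WT gave 14 calls (2505 over all genes). Hmgcs1 and Nsdhl in both lines, and Acat2, Idi1 and Scd1 in D647V-Tetra, were called under all 10 alternatives tried.

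The members are part of a wider pathway, and 20 further sterol genes (16 tested in set 1, 17 in set 2) and 23 further fatty acid genes (20 tested in each) were read in the same fits. With Dex, the lipin gene Lpin1, whose protein makes diacylglycerol, fell by 0.43 in WT of set 1, 0.29 in Y551A-Dim, 0.46 in WT of set 2 and 0.24 in D647V-Tetra. Mylip, which encodes a ubiquitin ligase, fell by 0.38 in WT of set 1, 0.43 in WT of set 2 and 0.35 in D647V-Tetra. The lysosomal cholesterol exporter Npc1 rose by 0.25 in Y551A and 0.40 in D647V-Tetra. Over both lists the Dex calls were 0 higher and 3 lower in WT of set 1, 2 and 0 in Y551A, 0 and 1 in Y551A-Dim, 0 and 2 in WT of set 2 and 3 and 6 in D647V-Tetra, where 11.3% of all genes were called higher and 7.89% lower. In the order before it the shares of all genes called in either direction were 3.4%, 1.84%, 1.09% and 1.72%. In D647V 0 passed, with 4 sterol and 3 fatty acid genes at an unadjusted p under 0.05, a threshold at which all genes were not counted.

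Without Dex, 9 of 16 sterol genes and 10 of 20 fatty acid genes were lower in Y551A than in WT, and 1 and 2 were higher, against 23.5% lower and 18.9% higher over all genes. Among them were Hsd17b12 (-0.47), an enzyme of fatty acid elongation, Elovl5 (-0.41), an elongase, and Lbr (-0.25), a sterol reductase. In Y551A-Dim 5 and 7 were lower and 0 and 3 higher, against 13.3% of all genes lower and 10% higher. In set 2 the elongase Elovl6 exceeded its WT level by 0.55 in D647V and 0.44 in D647V-Tetra, the acyl-CoA synthetase Acsl3 by 0.27 and 0.36, and Lbr by 0.28 in each. In D647V 2 sterol and 2 fatty acid genes were higher and 0 lower, against 4.58% of all genes higher and 2.78% lower. In D647V-Tetra 2 and 3 were higher and 0 and 2 lower, against 9.35% of all genes higher and 9.34% lower.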

How the data were processed

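RNA sequencing counts per gene were deposited for 34 libraries. Per the file headers, the authors counted reads over GENCODE vM21 exons by gene name with featureCounts 2.0.3, reverse-stranded, with no option set for multimapping or duplicate reads and with mates counted singly. STAR, cutadapt, bcl2fastq 2.17 and mm10 are named per the submitters' processing notes. The spike-in was not used.

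Sets 1 and 2 follow the numbering in the titles. All 16 headers of set 2 and no header of set 1 carry the word resent. The labels mention kit batches without assigning libraries to them. Each set was fitted separately with edgeR 4.0.16 in R 4.3.3 (limma 3.58.1): trimmed-mean scaling, filterByExpr, group means and the quasi-likelihood test, with Benjamini-Hochberg adjustment over all genes of a contrast and calls at an adjusted p below 0.05. CPM are counts scaled by the normalised library size, and SE is the log2 change divided by the root of F. The test was checked on simulated data. Alternatives were DESeq2 1.42.0, other size factors, no filter, only the groups of a contrast, a replicate block and leaving out each library.

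The members and lists were chosen with earlier results of these data known. Values in every library are given for members called in a Dex response or its difference and for up to 6 called members with the largest change per baseline, and for a few others chosen after their values were seen. Some genes of the wider lists are not reported here.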

Additional observations from a re-analysis of the deposited data

Results flagged for a closer look

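Acat2 and Hmgcs1 responded differently to Dex in D647V-Tetra and in WT of set 2 by the test of the difference itself (edgeR's quasi-likelihood test). The difference was -0.29 on the log2 scale for Acat2 (adjusted p = 0.0394) and -0.35 for Hmgcs1 (adjusted p = 0.0171). In D647V-Tetra all 3 Dex libraries lay below all 3 EtOH libraries for both genes, while in WT both genes were slightly above their EtOH mean, by 0.07 and 0.05, and neither of these WT changes was called. In WT of set 1 both changes were negative without a call, -0.06 for Acat2 and -0.09 for Hmgcs1, whose Dex libraries (1367, 1389 and 1381 CPM) lay below its EtOH libraries (1473, 1478 and 1437 CPM). With only the groups of the contrast in the fit the adjusted p of the difference was 0.0621 for Acat2 and 0.0582 for Hmgcs1. Both calls were also lost without WT EtOH replicate 2, WT Dex replicate 2 or D647V-Tetra Dex replicates 1 or 3, with the largest adjusted p without WT Dex replicate 2 (0.239 and 0.134). The same EtOH libraries give the baseline, where both genes were higher in D647V-Tetra than in WT, so the 2 results are not independent.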

How the results depend on the processing

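Of the 121 calls of members over the 18 comparisons, 73 were called under every alternative run, 48 were lost under at least 1, and all 121 kept their direction. Only the groups of the contrast in the fit gave 5 members called for Dex in WT of set 1 (1 as reported), 1 in Y551A (0), 0 in Y551A-Dim (3), 0 in WT of set 2 (1) and 7 in D647V-Tetra (11), and for the baselines 5 in D647V (12), 5 in D647V-Tetra against WT (16) and 0 against D647V (1), and 0 for the difference between D647V-Tetra and WT (2). DESeq2 gave 7 for Dex in Y551A-Dim, 17 in D647V-Tetra, 6 for the baseline of D647V-Tetra against D647V, 1 for the difference of Y551A-Dim and Y551A, 6 for that of D647V-Tetra and WT and 2 for that of D647V-Tetra and D647V (0). No filter on low counts gave 3 for Dex in WT of set 1, 1 in Y551A, 13 in Y551A-Dim, 5 for the baseline of D647V-Tetra against D647V, and 3, 6 and 2 for the same 3 differences. The replicate block gave 1 for Dex in Y551A, 6 for the baseline of D647V and 1 for the difference between D647V-Tetra and WT. Over all genes, only the groups of the contrast moved the count from 549 to 864 for Dex in WT of set 1, 176 to 46 in Y551A-Dim, 1290 to 761 and 3277 to 1876 for D647V and D647V-Tetra against WT without Dex, 795 to 235 for D647V-Tetra against D647V, 774 to 457 for the difference of D647V-Tetra and WT and 29 to 70 for that of Y551A and WT. DESeq2 and no filter gave 321 and 491 for Dex in Y551A-Dim, 1426 and 1956 for D647V-Tetra against D647V, and for the differences 55 and 109 (Y551A and WT), 62 and 244 (D647V and WT, 33 as reported), 1755 and 2424 (D647V-Tetra and WT) and 465 and 936 (D647V-Tetra and D647V, 153 as reported). No filter alone gave 583 for Dex in WT of set 2 (302) and 380 in D647V (165), and 422 and 250 for the differences of Y551A-Dim from WT (238) and Y551A (90). The replicate block gave 502, 431 and 82 for the last 3 comparisons of D647V-Tetra, without Dex against D647V and as differences from WT and D647V. The replicate numbers showed no clear pairing of the samples. Each gene's group mean was subtracted, and the deviations left were correlated between same-numbered libraries of different groups. These correlations ran from -0.15 to 0.098 in set 1 and -0.24 to 0.24 in set 2, where 7 of 36 were over 0.1. The WT groups of set 2 have 2 libraries, whose deviations mirror each other by construction and can show little about pairing. Leaving out 1 library gave 1 to 1, 0 to 1 and 1 to 20 calls for Dex in WT, Y551A and Y551A-Dim of set 1, 0 to 1, 0 to 1 and 4 to 12 in WT, D647V and D647V-Tetra of set 2, 27 to 28, 16 to 22 and 19 to 22 for the set 1 baselines, 2 to 12, 8 to 14 and 0 to 4 for those of set 2, and 0 to 0, 0 to 3, 0 to 4, 0 to 0, 0 to 5 and 0 to 0 for the differences. The Insig1 difference of Y551A-Dim and Y551A turned to 0.0052 without Y551A-Dim Dex replicate 1, and that of D647V and WT ran from -0.061 (without WT Dex replicate 1) to 0.15 (without WT Dex replicate 2). The cause of these changes was not tested. All 31 members passed the filter on low counts in both sets.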
